A study of Homo sapiens with 7 samples.

Results

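MiR-191 and miR-425 are a pair of microRNAs whose hairpins lie close together in an intron of the gene DALRD3 and are made from one primary transcript. They were measured by quantitative PCR in 7 cell lines derived from MDA-MB-435-GFP, a human tumor cell line that carries green fluorescent protein and was long used as a breast cancer line, although its expression profile matches melanoma. The pair was chosen by the names of its assays, with the average Ct of these same cards in view, and no threshold on Ct entered the choice. The comparisons of its levels are therefore a description of these lines and no independent support. Of the 377 human microRNA assays on each card, 2 carried these names, and each was measured in 1 well of every card.

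The 3 oligometastatic lines, called L1-R2, were grown from the lungs of athymic female mice that received L1-R1 cells, which had been raised from lung macrometastases. The 4 polymetastatic lines, called L1Mic-R2, came from the lungs of mice that received L1Mic-R1 cells, raised from tumor cells in the part of the same lung that was free of macrometastases. Each line came from the lung of a distinct animal and was purified with the antibiotic G418. The age of the mice is given only as matched, and all lines of a group descend from a single parent line, so that the spread between lines does not hold the spread between such parents. The comparison asks whether the pair differs between lines that give few metastases and lines that give many.

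A microRNA is cut from a hairpin in a longer transcript by Drosha and then by Dicer, and one arm of the hairpin is loaded into an Argonaute protein, where the bases of its seed pair with target messages. MicroRNA hairpins that share a primary transcript are made together, but each is cut, trimmed and degraded on its own, so that the levels of the mature products can differ. MiR-191 is abundant in many tissues and tumors and is often used as a reference in PCR work, and miR-425 has been linked to the growth and survival of tumor cells.

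The sequences of both hairpins are shown because the comparison turns on a pair that is encoded side by side. They are from RefSeq, assembly GRCh38.p14, on the minus strand of chromosome 3, written 5′ to 3′. MIR191 lies at chr3:49020618-49020709 and MIR425 at chr3:49020148-49020234, with 383 bases between them. Both are inside DALRD3, chr3:49015488-49021505, on the same strand, and MIR191 begins 796 bases from the start of that gene. Capitals mark hsa-miR-191-5p in the MIR191 hairpin and hsa-miR-425-3p in the MIR425 hairpin.
MIR191 hairpin: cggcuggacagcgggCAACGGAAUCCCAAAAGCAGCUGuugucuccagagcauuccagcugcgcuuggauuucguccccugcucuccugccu
MIR425 hairpin: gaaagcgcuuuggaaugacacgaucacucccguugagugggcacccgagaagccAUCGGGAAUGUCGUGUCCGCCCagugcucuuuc

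In the mature sequences, capitals mark the seed, bases 2 to 8. They are shown because a seed decides which messages a microRNA can pair with. Hsa-miR-425-5p is the other arm of MIR425. The names of the assays give no arm, so that the seeds printed are those of the arms named and not necessarily of the RNA that was measured.
hsa-miR-191-5p: cAACGGAAucccaaaagcagcug
hsa-miR-191-3p: gCUGCGCUuggauuucgucccc
hsa-miR-425-3p: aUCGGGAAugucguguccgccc
The 3 seeds differ from each other, and 0 of the other 2370 mature microRNAs compared carried any of them.

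The threshold cycle, Ct, is the cycle of PCR when a well's fluorescence passes a set level. It is smaller for more RNA, and 1 cycle stands for about a 2-fold difference. Both assays crossed the threshold on all 7 cards, and both had the same settings there, a baseline from cycle 3 to cycle 15 and a threshold of 0.3. The number read for each card ran from 1 to 3 in the L1-R2 lines and from 4 to 7 in the L1Mic-R2 lines. It was not taken as an order of running, and anything that goes with it cannot be told apart from group. L1-R2 line 4T had the lowest Ct of the 7 lines for the controls U6, RNU44 and RNU48 and for both members. With a single card per line, variation among lines and measurement error cannot be separated, and the number of cards limits the precision.

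The lineage markers of the lines were read first. MiR-204, a microRNA of the melanocyte lineage, was detected (raw Ct below 38) in all 7 lines, at 25.79 to 26.01 in L1-R2 and 26.31 to 26.92 in L1Mic-R2. MiR-211, which is encoded in a gene of melanocytes, was detected in 5 of 7 lines, at 27.49 to 30.56 in L1-R2 and 29.0 to 40 in L1Mic-R2. The lines without it were L1Mic-R2 lines. Of the epithelial list, miR-205 was Undetermined and miR-141 undetected in all lines. MiR-200c was detected in all 7, at 30.1 to 34.02 in L1-R2 and 32.4 to 35.46 in L1Mic-R2. MiR-200b was also detected in all 7, at 32.57 to 34.2 in L1-R2 and 34.17 to 36.76 in L1Mic-R2. Of the blood and endothelial list, miR-451, the microRNA of red cells, was Undetermined in all lines, while miR-223, a microRNA of myeloid cells, was detected in 4 lines, at 37.37 to 40 in L1-R2 and 35.35 to 40 in L1Mic-R2. MiR-126, of endothelial cells, was detected in all 7 and is given beside miR-425.

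MiR-191 was among the earliest assays of every card, and its level did not separate the groups. Its raw Ct was 21.47 in L1-R2 line 4T, 22.86 in line 3T and 22.73 in line 8T, on average 22.35 ± 0.77 (SD, n = 3). In L1Mic-R2 it was 22.39 in line 2T, 21.93 in line 3T, 21.64 in line 7T and 22.93 in line 8T, on average 22.22 ± 0.57 (SD, n = 4). The lowest and the next to highest value both belonged to L1-R2 lines, and the groups overlapped. Among the 135 microRNAs detected in all 7 lines it ranked 5 to 9 from the lowest Ct in L1-R2 and 5 to 8 in L1Mic-R2. These ranks describe the assays and do not compare amounts of different microRNAs, since assays differ in efficiency.

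After quantile normalization, which gives every card the same distribution of Ct, miR-191 averaged 22.40 ± 0.56 (SD, n = 3) over the L1-R2 lines and 22.17 ± 0.34 (SD, n = 4) over the L1Mic-R2 lines. Its log2 fold change, L1Mic-R2 over L1-R2, was 0.23 with a standard error of 0.33, and it did not pass the test (limma, adjusted p = 0.737). The 95% interval of this log2 fold change ran from -0.57 to 1.03, so that a change of up to about 1 cycle in favor of L1Mic-R2 lies within it. By p it ranked 122 of the 181 microRNAs tested, whose median log2 fold change was 0.06.

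MiR-425 was later in every L1Mic-R2 line than in every L1-R2 line. Its raw Ct was 27.35 in L1-R2 line 4T, 27.99 in line 3T and 27.50 in line 8T, on average 27.61 ± 0.33 (SD, n = 3). In L1Mic-R2 it was 29.50 in line 2T, 29.31 in line 3T, 28.53 in line 7T and 29.21 in line 8T, on average 29.14 ± 0.42 (SD, n = 4). The highest L1-R2 line, 3T, lay below the lowest L1Mic-R2 line, 7T, so that the groups did not overlap. By Ct it ranked 45 to 52 of 135 in L1-R2 and 60 to 72 in L1Mic-R2.

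After quantile normalization the L1-R2 lines averaged 27.85 ± 0.19 (SD, n = 3) for miR-425 and the L1Mic-R2 lines 29.07 ± 0.48 (SD, n = 4). Its log2 fold change was -1.22 with a standard error of 0.30, which corresponds to a level 2.32-fold lower in L1Mic-R2, and its 95% interval ran from -1.93 to -0.50. The unadjusted p of the limma fit was 0.00592, and after Benjamini-Hochberg adjustment over the 181 microRNAs it was 0.0819, which did not pass the threshold of 0.05. It ranked 13 of 181 by p and 44 by the size of the difference. Of the 181 microRNAs, 4.97% passed the adjusted threshold (1.66% with the lower level in L1Mic-R2), 19.3% were under 0.05 before adjustment and 9.94% were so with the lower level in L1Mic-R2. The groups did not overlap for 19.3% of them, 10.5% with the lower level in L1Mic-R2.

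**Figure D1:**
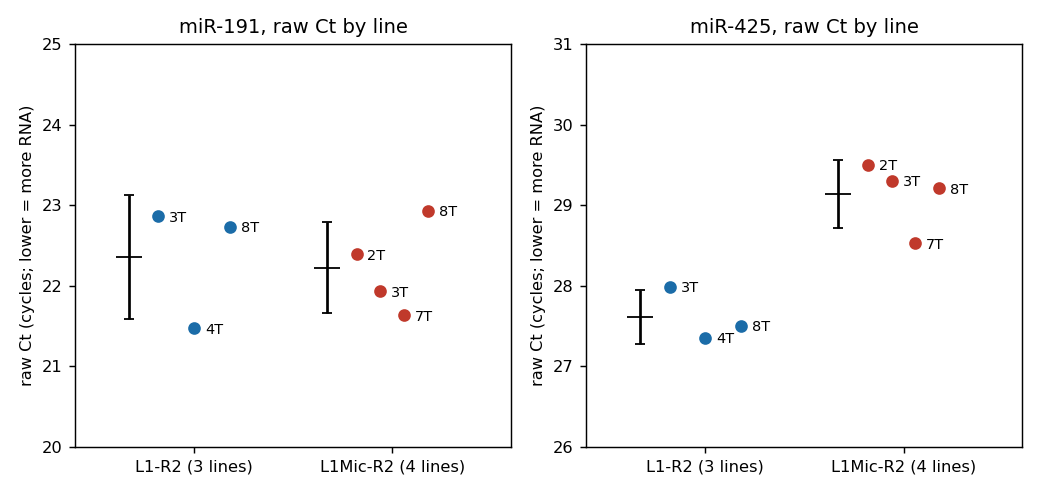
Raw Ct of miR-191 (left) and miR-425 (right) in cycles for each line, where a lower value stands for more RNA. Points are lines with their numbers and black bars are the mean and SD of 3 L1-R2 and 4 L1Mic-R2 lines. The groups overlap for miR-191 and do not for miR-425, whose L1-R2 lines lie between 27.35 and 27.99 and whose L1Mic-R2 lines lie between 28.53 and 29.50.

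The ranges of the lineage markers in the 2 groups were set beside those of miR-425. Of all 181 microRNAs tested, 19.3% had groups that did not overlap after quantile normalization. MiR-126, an endothelial microRNA, was detected in all 7 lines and went the other way, at a raw Ct of 32.46 to 35.06 in L1-R2 and 28.71 to 32.41 in L1Mic-R2. Summed over the 3 microRNAs of the blood and endothelial list the range was 32.46 to 34.96 in L1-R2 and 28.71 to 32.3 in L1Mic-R2. This sum is close to miR-126 alone, since miR-451 was Undetermined in all lines and miR-223 was never below 35.35. The groups of miR-223 overlapped. The melanocyte list held 2 microRNAs, both detected. Summed, its raw Ct was 25.51 to 25.81 in L1-R2 and 26.1 to 26.92 in L1Mic-R2. In raw Ct it was later in every L1Mic-R2 line, as miR-425 was. After quantile normalization the groups of both melanocyte microRNAs overlapped. Their log2 fold changes were -0.59 for miR-204 and -6.57 for miR-211 (limma, adjusted p = 0.208 and 0.267). The groups of miR-425 and miR-126 did not overlap on that scale. The summed epithelial list, with 2 of 4 detected, overlapped between the groups, at 29.9 to 33.11 and 32.03 to 34.97. Whether these RNAs have a part in the values of miR-425 was not tested.

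U6, RNU44 with RNU48 and the mean of detected microRNAs each subtract the same value from all assays of a card. By construction, the choice of such a reference moved both members by the same amount and left their distance as it was. Without normalization the log2 fold change was 0.13 for miR-191 and -1.52 for miR-425, and relative to U6 it was 0.19 and -1.47. Relative to the mean of RNU44 and RNU48 it was 0.94 and -0.72, and the median over all 181 microRNAs was 0.56 on that scale. On that scale the groups did not overlap for miR-191, which did not pass the test (limma, adjusted p = 0.219), and they did overlap for miR-425 (limma, adjusted p = 0.348). The groups of U6 did not overlap there either, with a log2 fold change of 0.75. For RNU44, L1-R2 line 4T had a raw Ct of 23.67, the lowest of all, line 3T had 25.59 and line 8T had 24.82, and the L1Mic-R2 lines lay between 25.29 and 25.97. For RNU48, line 4T was lowest as well, at 18.81, and the other 6 lines lay between 20.07 and 20.97.

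Under such references the distance of a member from the median of all microRNAs is also the same by construction. With raw Ct, U6, RNU44 and RNU48 or the mean of detected microRNAs, miR-191 lay 0.38 above the median log2 fold change and miR-425 lay at -1.28 from it. After quantile normalization these distances were 0.18 and -1.27. MiR-425 passed the adjusted threshold relative to U6 (limma, adjusted p = 0.0374) and relative to the mean of detected microRNAs (log2 fold change -1.29, adjusted p = 0.0471). Of all 181 microRNAs, 8 passed relative to U6, 7 of them lower in L1Mic-R2, and 10 passed relative to that mean, 5 of them lower. Its adjusted p lay between 0.0261 and 0.431 over 18 alternatives to the reported fit, 4 of which were under 0.05, and its log2 fold change lay between -1.52 and -0.72. MiR-191 passed in 0 of 18 alternatives, with adjusted p from 0.219 upward.

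**Figure D2:**
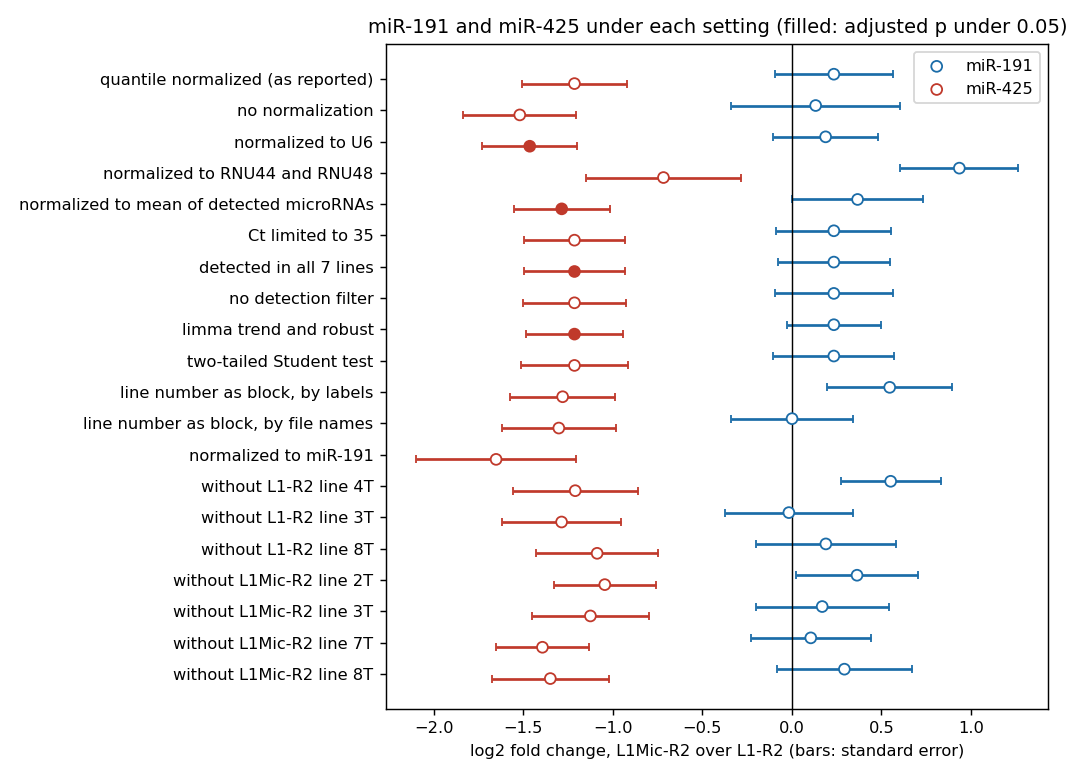
Log2 fold change, with L1-R2 as the base, for miR-191 (blue) and miR-425 (red) under each setting, with bars for the standard error and filled points where the adjusted p was under 0.05. MiR-425 lies below 0 under every setting drawn, from -1.65 relative to miR-191 to -0.72 relative to RNU44 and RNU48, while miR-191 lies near 0 or above it.

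Because both assays were read on the same card, the Ct of miR-425 minus that of miR-191 is free of any shift common to a card. This difference in raw Ct was 5.88 cycles in L1-R2 line 4T, 5.13 in line 3T and 4.77 in line 8T. It was 7.11 in L1Mic-R2 line 2T, 7.37 in line 3T, 6.89 in line 7T and 6.28 in line 8T. Every L1Mic-R2 line lay above every L1-R2 line, and the closest lines, L1-R2 4T and L1Mic-R2 8T, were 0.40 cycles apart.

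The mean was 5.26 ± 0.57 cycles (SD, n = 3) in L1-R2 and 6.91 ± 0.47 cycles (SD, n = 4) in L1Mic-R2. Relative to miR-191, miR-425 was therefore 1.65 cycles later in L1Mic-R2, a ratio 3.15-fold lower. The exact two-sided permutation test of the size of this difference gave p = 0.0286, the smallest value that 3 lines against 4 allow, and p = 0.0571 if the one-sided value is doubled instead. With quantile normalized Ct the difference was 1.45 cycles and the order of the groups was the same. For reference, of the 9045 differences between any 2 of the 135 microRNAs, 26.5% had groups that did not overlap and 14.1% had groups that stood as far apart as these or farther.

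**Figure D3:**
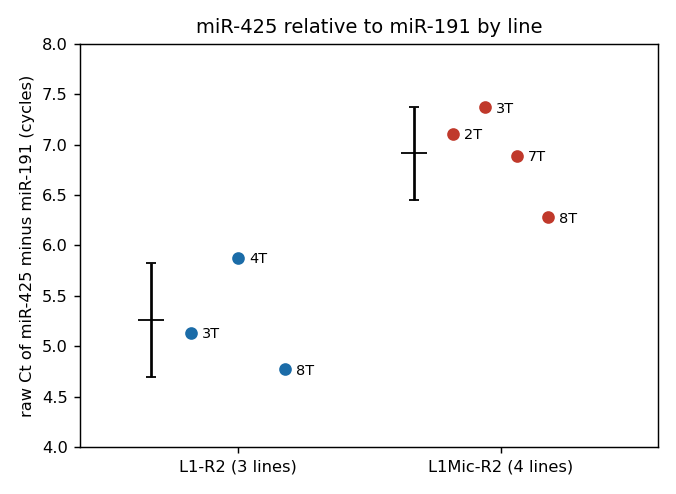
Raw Ct of miR-425 minus raw Ct of miR-191 on the same card, in cycles, for each line, with the mean and SD of the group as black bars. The 3 L1-R2 lines lie between 4.77 and 5.88 and the 4 L1Mic-R2 lines between 6.28 and 7.37.

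The pair was set beside other microRNAs that share a primary transcript. Of 29 such pairs listed, 18 were detected in all 7 lines, this one included. The SD over 7 lines of the difference in raw Ct between partners was 0.998 cycles for miR-191 and miR-425, against a median of 0.487 for the other 17, and it ranked 3 of 18. Only miR-221 with miR-222 (1.63) and miR-130b with miR-301b (1.03) varied more. The pairs that varied least were miR-532-5p with miR-660 (0.203), miR-193b with miR-365 (0.226) and miR-301a with miR-454 (0.305).

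Between the groups, the difference within the pair moved by 1.65 cycles, the next to largest of the 18. It moved by 2.80 cycles for miR-221 with miR-222 and by 1.02 cycles for miR-18a with miR-19a, and the median size over the other 17 pairs was 0.456. The groups did not overlap for 6 of the other 17 pairs, beside 26.5% of the differences between any 2 microRNAs, so that nothing particular to such pairs is read from this count. Within the groups the pair did not stand out, with a pooled SD of 0.508 cycles against a median of 0.476, rank 9 of 18. The pair miR-130b with miR-301b had the opposite form, since its large SD came from spread within the groups (1.12) and its groups differed by 0.135 in size. Some of these assays read microRNAs that have near-identical copies, which makes their values less certain.

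**Figure D4:**
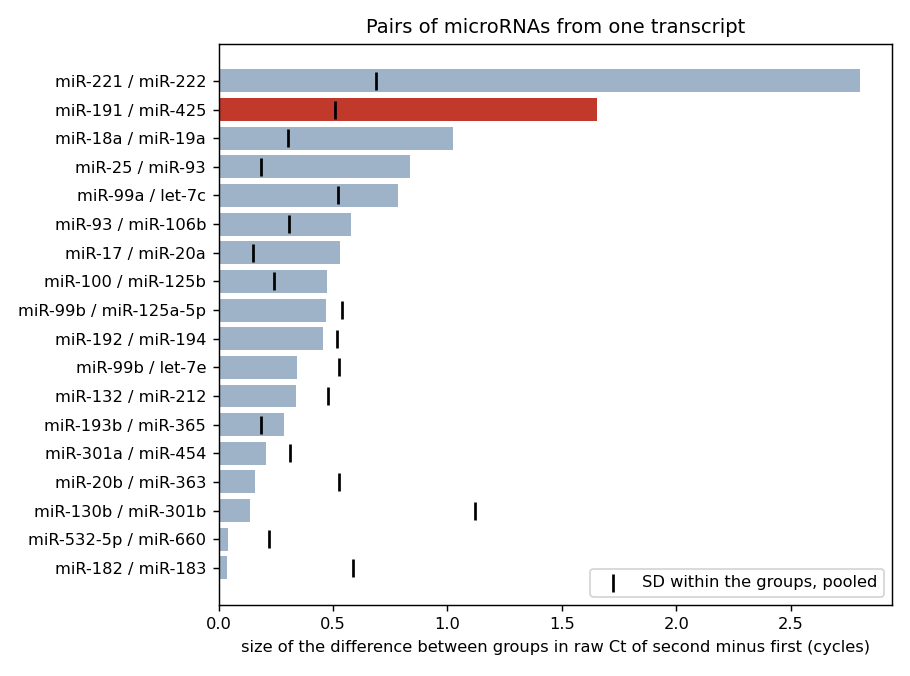
Size of the difference between L1Mic-R2 and L1-R2 in the raw Ct distance between partners, in cycles, for 18 pairs of microRNAs made from one transcript (bars, with miR-191 and miR-425 in red). Black ticks mark the pooled SD within the groups, and the red bar, 1.65, lies beyond its tick at 0.508.

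The microRNAs whose pattern over the 7 lines was most like each member were found by the SD of the difference in raw Ct, where a small SD means that the pattern is alike. For miR-191 these were miR-196b (0.240 cycles), miR-339-3p (0.255), miR-186 (0.269), miR-628-5p (0.279) and miR-454 (0.282), of 134 compared. Their log2 fold changes lay between 0.20 and 0.47 and their groups overlapped, as those of miR-191 did. Its partner miR-425 ranked 109 of 134, and 107 with quantile normalized Ct.

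For miR-425 the closest was miR-192 (0.288 cycles), a microRNA induced by p53, with a log2 fold change of -1.51 that passed the test (limma, adjusted p = 0.0392). It was followed by miR-509-5p (0.397), miR-26a (0.424), miR-146a (0.463) and miR-508-3p (0.465). MiR-509-5p and miR-508-3p belong to a cluster on the X chromosome that is active in melanoma. Their log2 fold changes were -1.05 and -0.83, and neither passed (limma, adjusted p = 0.113 and 0.0819), though the groups of both did not overlap. MiR-146a held the same rank on all cards and had no difference after quantile normalization, where it was at rank 39. MiR-191 ranked 82 of 134 for likeness to miR-425, and 65 with quantile normalized Ct. These distances describe 7 lines that share cards and controls, and they carry no test.

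As a reference for PCR, miR-191 was neither among the most nor among the least even microRNAs of these lines. Its SD of quantile normalized Ct over 7 lines was 0.423 cycles, rank 65 of 135 from the smallest, beside a median of 0.431. Its SD was 0.601 with raw Ct, 0.359 relative to U6, 0.532 relative to RNU44 and RNU48 and 0.497 relative to the mean of detected microRNAs, with ranks from 33 to 84. MiR-425 varied more, with an SD of 0.741 and rank 104 after quantile normalization, and its rank lay between 48 and 114 over these scales. If miR-191 itself served as the reference, 1 of 180 microRNAs passed the adjusted threshold, miR-181c (log2 fold change -3.06, limma adjusted p = 0.00921), which was named after its value was seen. It rests on values near the detection limit, with quantile normalized means of 37.17 in L1-R2 and 38.89 in L1Mic-R2, and with quantile normalization miR-181c was at -1.73 and was not called (limma, adjusted p = 0.162). With miR-191 as the reference, 30 had an unadjusted p under 0.05, the median log2 fold change was -0.38, and miR-425 was at -1.65 (limma, adjusted p = 0.139).

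Of 16 other microRNAs that are used or proposed as references, all were tested, and limma called 0 with adjustment and 1 at an unadjusted p under 0.05, where 4.97% and 19.3% of all 181 microRNAs were. Of these 16, 11 had a log2 fold change above 0 and 5 below, with a median of 0.17 against 0.06 over all 181. After quantile normalization miR-16 was the most even, with an SD of 0.0823 and rank 2 of 135, followed by miR-374b (0.113). An assay that holds the same rank on every card is given the same value, so that a small SD can stem from a steady rank. The raw Ct of miR-16 ran from 20.74 to 21.68. The least even were miR-423-5p (2.47), which was detected in 5 lines, and let-7a (0.876). The microRNA under 0.05 was miR-30c, named after its value was seen, with a log2 fold change of -0.62 (limma, adjusted p = 0.121) and groups that did not overlap.

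**Figure D5:**
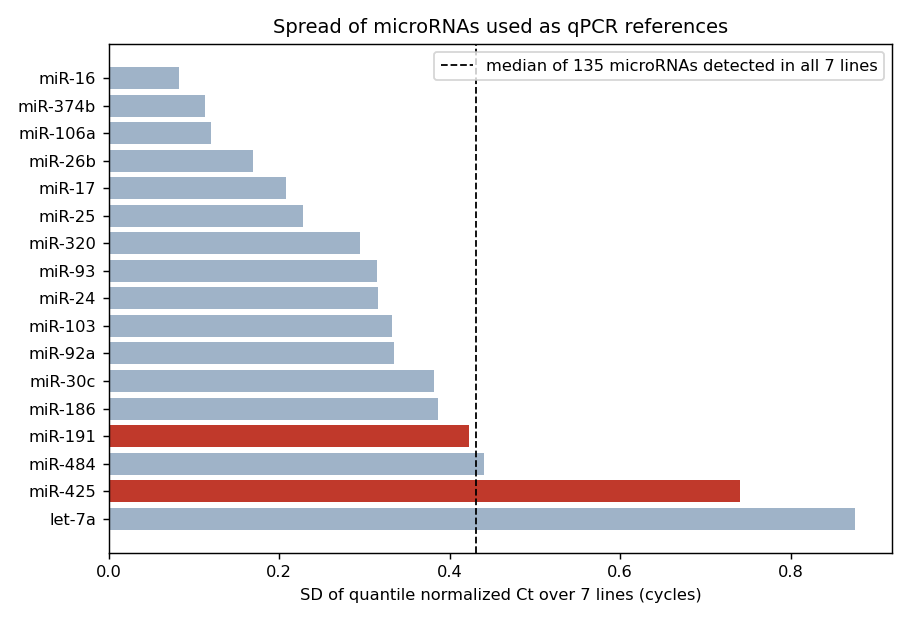
SD of quantile normalized Ct over 7 lines, in cycles, for miR-191 and miR-425 (red) and the microRNAs of the reference list that were detected in all 7 lines (grey), with the median of 135 microRNAs as a dashed line. MiR-191 (0.423) lies next to that line, miR-425 (0.741) is wider, and miR-16 (0.0823) is the narrowest. On this scale a small SD can stem from a steady rank on the cards.

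Other microRNAs with a hairpin on the short arm of chromosome 3 were read for the same comparison. Of 7 listed, 6 were on the card and 5 were tested, with 0 called by limma after adjustment and 1 at an unadjusted p under 0.05, which is near the shares over all 181 microRNAs, 4.97% and 19.3%. That one was miR-26a, whose log2 fold change was -0.75 with a standard error of 0.16 (limma, adjusted p = 0.0545). Its groups did not overlap, and it was also among the 5 microRNAs most like miR-425. The log2 fold change was -0.26 for let-7g, a member of the let-7 tumor suppressor family, and -0.26 for miR-138, with little spread in both. It was 1.85 for miR-128 and 0.16 for miR-135a, which were each detected in 6 lines and had an SD of 2.14 and 1.77 cycles. The median over the 5 was -0.26, against 0.06 over all 181. MiR-885-5p was detected in 1 line and was not tested. MiR-26a, miR-128, miR-135a and miR-138 have another hairpin on a different chromosome, and an assay of the mature RNA does not tell their sources apart.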

How the data were processed

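MicroRNA was measured on TaqMan Human MicroRNA Array A cards, 1 per line, in 3 L1-R2 and 4 L1Mic-R2 lines. The authors deposited raw and average Ct per well, in cycles, a log2 scale, and an Undetermined well is listed at an average Ct of 40. Per the paper, RNA was purified with TRIzol and data were imported with SDS RQ Manager. The Ct in the files analysed precede quantile normalization, and the normalized data that the paper also describes were not used here. Ct values were quantile normalized over 381 assays, and 40 minus Ct was fitted with limma 3.58.1 (lmFit and eBayes) in R 4.3.3 over the 181 of 377 microRNAs with raw Ct below 38 in at least 3 of 7 lines, with Benjamini-Hochberg adjustment over all of them. Where a microRNA was Undetermined, 40 entered the fit. Exact permutation tests used SciPy 1.17.1. The scripts were tested on simulated data.

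Groups and line numbers follow the labels. In the file names the numbers 3T and 4T of L1-R2 are swapped, and pairing was computed both ways. The labels also name SYBR and the mammary fat pad, but the methods of the paper, TaqMan assays on lines from tail vein injection, were followed.

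The members and the lists were chosen with earlier results of these data known. Named in the text are both members, the controls, the 5 microRNAs most like each member, list members called or with the 2 smallest and 2 largest SD, the 3 most and 3 least even pairs, and lineage markers. The alternatives were other references (U6, RNU44 with RNU48, the mean of detected microRNAs, none), a Ct limit of 35, other detection filters, limma with trend and robust options, the methods' t-test, a block for the line number and leaving out lines one at a time. Normalization to miR-191, and quantile normalized Ct for the pair, were added after seeing the data.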

Additional observations from a re-analysis of the deposited data

How the results depend on the processing

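The log2 fold change of miR-425 kept its sign under all 18 alternatives and passed the adjusted threshold in 4: relative to U6 (-1.47), relative to the mean of detected microRNAs (-1.29), among microRNAs detected in all 7 lines (-1.22) and with trend and robust options (-1.22). Without 1 line it lay between -1.39 and -1.05. That of miR-191 lay between -0.02 and 0.55 without 1 line, and it was -0.0173 without L1-R2 line 3T and 0.55 without L1-R2 line 4T. The miR-425 minus miR-191 difference lay between 1.41 and 1.96 cycles without 1 line, where 0.05 could not be reached by the exact permutation test. With a replicate block for the number of the line, only lines 3T and 8T pair, and the difference was 1.88 cycles by the numbers of the labels and 1.50 by those of the files, with exact p = 0.5, the smallest 2 pairs allow. In limma that block gave miR-425 a log2 fold change of -1.28 and -1.30. Same-numbered lines did not deviate together (r = -0.044 and -0.197 by the labels, 0.019 and -0.197 by the files). With 2 pairs, some with values near the detection limit, this cannot tell whether they share more than a number. Of the reference list 1 was called, miR-30c, with trend and robust options. Of the chromosome 3p list 1 was called, miR-26a, relative to U6, relative to the mean of detected microRNAs, with Ct limited to 35, among microRNAs detected in all 7 lines, and with trend and robust options. The SD of miR-191 was 0.601 with raw Ct against 0.423. Over all microRNAs, 9 were called as reported, 14 among those detected in all 7 lines, 21 with trend and robust options and 6 without normalization. Relative to U6 there were 8, relative to the mean of detected microRNAs 10, and with Ct limited to 35 there were 8. The count was 0 relative to RNU44 and RNU48, without a detection filter, with the methods' t-test and under both blocks. Leaving out 1 line gave 0 to 4 calls. The causes were not tested.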
